A study of Homo sapiens with 6 samples.

Results

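The mRNAs described here are those of the numbered ZNF genes that HEK293 cells expressed above a set level. They were chosen by symbol, ZNF followed by a number, and selected on total RNA: the mean over both MOV10 siRNA columns of the deposited half-life table and that over both mock columns each had to reach 5. Of 330 ZNF rows among 7682 genes, 201 met that minimum and 129 did not. The 201 are also 201 of the 6064 genes, of any family, that passed the same minimum and entered every test. Since total RNA chose the genes, its values are given as a description, with no test.

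HEK293 is a human embryonic kidney cell line. The cells received siRNA against MOV10, an RNA helicase that acts on mRNAs and on retroelement RNA, or a mock transfection, and all of them then took up 700 µM 4-thiouridine (4sU) for 60 min. RNA made during that hour carries the label and was pulled down on streptavidin after biotinylation, which leaves older RNA in the flow-through; poly(A)+ libraries were made from labelled, flow-through and total RNA. The 6 groups are therefore labelled, flow-through and total RNA of MOV10 siRNA cells, and the same fractions of mock cells. GEO lists 1 sample for each group, while the table has 2 replicate columns for each. Nothing in the sources used here says that the columns came from separate cultures, so each p-value measures only the spread between columns, which may be technical. The labels name no control siRNA for the mock cells, and the effect of transfecting an siRNA as such cannot be told apart from that of losing MOV10. In the pooled RNA of many cells, fewer cells with an mRNA and less of it per cell cannot be told apart either.

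ZNF proteins bind nucleic acids through zinc fingers, most often strings of the C2H2 type in which paired cysteines and histidines hold a zinc ion. Many carry a KRAB box ahead of the fingers, which recruits the corepressor TRIM28 and, through it, the histone methyltransferase SETDB1 and HP1 proteins. KRAB zinc finger genes arose in tandem clusters, many of them on chromosome 19, and a large share of their proteins bind transposable elements and silence them. Other ZNF proteins are conserved transcription factors, and some act on RNA or on ribosomes. Messages for transcription factors are known to turn over fast in many cell types.

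The knockdown was visible in the targeted gene. MOV10 total RNA was 3.53 and 3.64 in MOV10 siRNA cells, against 13.1 and 14.6 in mock cells, a 3.86-fold lower mean. MOV10 flow-through RNA was 5.13 and 5.38 in MOV10 siRNA cells, against 19.6 and 19.3 in mock cells, and its labelled RNA was 2.55 and 2.63 in MOV10 siRNA cells, against 2.95 and 3.20 in mock cells. Columns of the siRNA cells lay below those of mock cells in all 3 fractions, least so in labelled RNA. MOV10 after siRNA lay below the minimum and was not tested. Of 8 genes that mark HEK293 cells, the table held NEFL, INA, VIM and LIN28B and lacked NEFM, PAX2, KRT8 and KRT18. Of 10 markers of blood, fibroblasts and hepatocytes it held 0. Absence from the table was not taken as absence of expression, and cell identity was not tested. Spearman correlations between the replicate columns of a group, over the ZNF genes, lay between 0.9545 for total RNA of mock cells and 0.9884 for labelled RNA of mock cells. The values are a normalised signal whose unit the table does not name, none of them is below 1.00018, and depth is unknown.

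Total RNA, by which the genes were selected, varied widely among them. In MOV10 siRNA cells the median total value was 9.09 and 9.24, with a range of 4.78 to 141 in replicate 1, and in mock cells it was 9.01 and 9.45, with 3.70 to 133 in replicate 1. Many members therefore lay close to the minimum. Just inside it, the KRAB gene ZNF436 had means of 5.80 after siRNA and 5.04 in mock, and ZNF714 had 6.06 and 5.05. Just outside it, ZNF708 had means of 5.49 after siRNA and 4.84 in mock, and ZNF524 had 4.91 and 5.05. Differences in log2(total value + 1) between siRNA and mock, relative to the median gene of each column, had a median of 0.064 over the ZNF genes and 0.011 over all 6064 genes. They ran from -0.83 for ZNF238 to 0.41 for ZNF23, and the quartiles of the ZNF genes were -0.048 and 0.16.

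ZNF mRNAs were short-lived in both conditions. By the authors' half-lives, the median ZNF mRNA lasted 244 and 334 min in MOV10 siRNA cells and 236 and 271 min in mock cells. Over all 6064 genes the medians were 764 and 1029.6 min in MOV10 siRNA cells and 742 and 809.6 min in mock cells. By mean mock half-life, 93 of the 201 (46.3%) were among the 10% of all genes with the shortest half-lives, up to 229 min, and 160 (79.6%) were among the shortest 30%. The longest-lived 10% held 1 of them. The table does not name the unit of the half-lives. Minutes are an assumption: half-lives recomputed from the labelled and flow-through values, scaled to total RNA, with 60 min of labelling had medians of 401 to 551 min over all genes, below the deposited medians of 742 to 1029.6, and the check did not settle the unit. Ratios and log2 changes do not depend on it.

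The spread within the family was wide. ZNF574 had half-lives of 30.8 and 57.8 min in MOV10 siRNA cells, against 43.8 and 45.6 min in mock cells. The KRAB genes ZNF543 and ZNF551 were almost as brief. ZNF543 was at 59.6 and 87.5 min in MOV10 siRNA cells, against 50.6 and 52.1 min in mock cells, and ZNF551 at 52.0 and 72.6 min in MOV10 siRNA cells, against 48.5 and 59.7 min in mock cells. ZNF703, which encodes a transcriptional corepressor linked to luminal breast cancer, was at 35.4 and 50.3 min in MOV10 siRNA cells, against 49.96 and 41.5 min in mock cells. These 4 had the shortest mean mock half-lives, and in each of them at least 1 siRNA column lay above both mock columns. In each gene replicate 2 of MOV10 siRNA was such a column, and its median over all genes was also the highest, at 1029.6 min. At the other end, ZNF76, a relative of the transcription factor ZNF143, was at 2142 and 2858 min in MOV10 siRNA cells, against 1928 and 1954 min in mock cells. ZNF664 was at 1607 and 2242 min in MOV10 siRNA cells, against 1437 and 1477 min in mock cells. The KRAB genes ZNF248 and ZNF33A completed the long-lived end. ZNF248 was at 1299 and 1461 min in MOV10 siRNA cells, against 1008 and 1449 min in mock cells, and ZNF33A at 1271 and 1618 min in MOV10 siRNA cells, against 1059.5 and 1078 min in mock cells. Of these 8 changes in half-life, 0 passed the test (limma, adjusted p from 0.168 to 0.989).

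**Figure D1:**
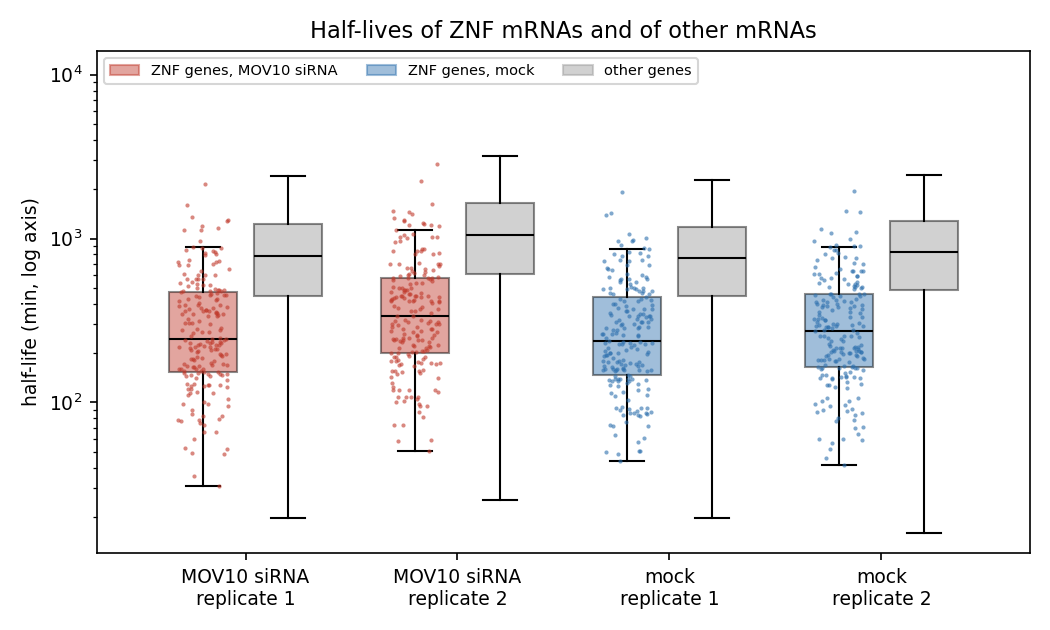
Half-lives in min on a log axis for each replicate column of MOV10 siRNA cells (red) and mock cells (blue), with the 201 ZNF genes as points and boxes and the other 5863 tested genes as grey boxes; boxes show quartiles and medians, and whiskers reach the last value within 1.5 times the box. ZNF medians lie at 244, 334, 236 and 271 min, left to right, below the grey boxes' medians in every column.

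New RNA made up more of these messages than of the median gene. Labelled RNA was set against flow-through RNA in 1 fit for each condition, with limma on log2(value + 1) centred on the median gene of each column with a Benjamini-Hochberg threshold of 0.05 across the 6064 genes. In MOV10 siRNA cells labelled RNA was higher than flow-through RNA in 168 of the 201 ZNF genes (83.6%), against 32.7% of all genes, and lower in 19 (9.45%), against 54.3%. In mock cells it was higher in 169 (84.1%), against 33.2% of all genes, and lower in 17 (8.46%), against 54.6%. The median log2 difference of the ZNF genes was 1.30 in MOV10 siRNA cells and 1.30 in mock cells. Without centring, labelled RNA was higher in 119 and lower in 52 in MOV10 siRNA cells, and higher in 114 and lower in 59 in mock cells. Uncentred shares of all genes are not given here. Before centring the median over all genes was -1.05 after siRNA and -1.19 in mock. The plain ratio of labelled to flow-through values had medians of 1.49 and 1.46 in MOV10 siRNA cells and 1.38 and 1.33 in mock cells. For all genes that ratio had medians of 0.459 and 0.460 after siRNA and 0.419 and 0.401 in mock. These ratios and the half-lives rest on the same columns and are not independent of each other. The fits also treated labelled and flow-through columns as independent, although both fractions of a replicate come from the same extract.

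Other zinc finger families in the table had short half-lives too. The 12 ZBTB genes, transcription factors with a BTB domain ahead of the fingers, had median half-lives of 244 and 299 min in MOV10 siRNA cells and 211 and 222 min in mock cells. The 14 ZSCAN, ZKSCAN and ZFP genes had 272 and 341 min in MOV10 siRNA cells and 239 and 284 min in mock cells. Relative to the median gene, labelled RNA was higher than flow-through RNA in 10 of the 12 and in 12 of the 14, in each condition. Over all genes it was higher in 32.7% after siRNA and in 33.2% in mock. These families were set beside the ZNF genes as a description, and no difference between them was tested. Symbols do not follow protein structure throughout: ZNF238 is now named ZBTB18, ZNF295 ZBTB21, ZNF193 ZSCAN9, ZNF187 ZSCAN26, ZNF192 ZKSCAN8, ZNF498 ZSCAN25 and ZNF259 ZPR1.

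Few ZNF half-lives passed the test between MOV10 siRNA and mock cells. Relative to the median gene, 2 of the 201 rose (0.995%), against 1.88% of all genes, and 3 fell (1.49%), against 4.27%; 44 passed an unadjusted 0.05. The median log2 change was 0.048 over the ZNF genes and 0.0026 over all genes. Before centring the median log2 change over all genes was 0.20, and without centring 0 ZNF genes passed in either direction. The direction of that shift was not the same in recomputed half-lives, which had medians over all genes of 426 and 401 min in MOV10 siRNA cells, against 462 and 551 min in mock cells.

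ZNF238, a BTB-type transcriptional repressor of brain development, had the largest fall. Its half-lives were 114 and 156 min in MOV10 siRNA cells, against 204 and 205 min in mock cells (log2 change -0.82, SE 0.096, limma, adjusted p = 0.00879). The siRNA values were below the mock values in both columns, and its total, labelled and flow-through RNA were lower as well. ZNF205 had half-lives of 386 and 505 min in MOV10 siRNA cells, against 498 and 542 min in mock cells (log2 change -0.43, SE 0.085, limma, adjusted p = 0.0367). ZNF414 was at 240.4 and 369.6 min in MOV10 siRNA cells, against 335 and 380.4 min in mock cells (log2 change -0.45, SE 0.10, limma, adjusted p = 0.0486). In both genes the higher siRNA value lay between the mock values before centring, so the falls are relative to the median gene, whose half-life was longer after siRNA. The KRAB gene ZNF283 was at 378 and 469 min in MOV10 siRNA cells, against 263 and 266 min in mock cells (log2 change 0.48, SE 0.095, limma, adjusted p = 0.0371). ZNF345 was at 349 and 445 min in MOV10 siRNA cells, against 229 and 244 min in mock cells (log2 change 0.54, SE 0.088, limma, adjusted p = 0.0212). In these last genes both siRNA columns lay above both mock columns. Without mock replicate 1, 0 ZNF half-lives passed the test, and without mock replicate 2 or without MOV10 siRNA replicate 1, 0 rose and 1 fell. The ZNF238 call held in 10 of 12 alternative settings, that of ZNF345 in 7 of 12, those of ZNF283 and ZNF205 in 6 of 13 each, and that of ZNF414 in 4 of 12.

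**Figure D2:**
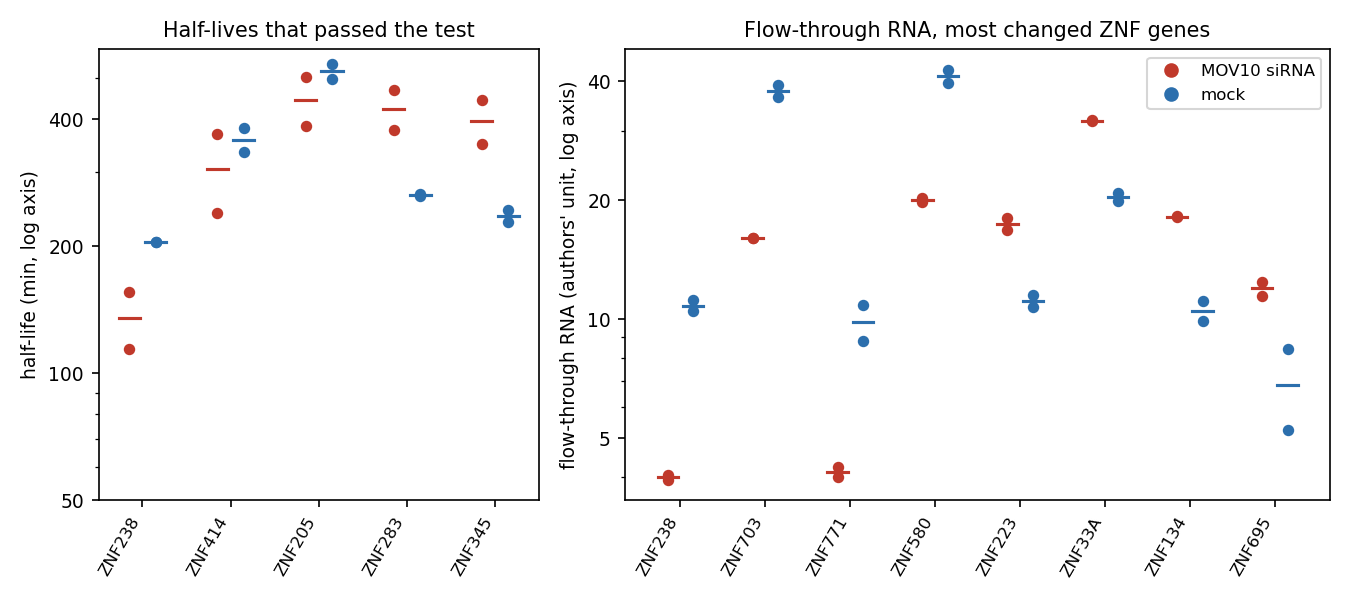
Values in both replicate columns of MOV10 siRNA cells (red points) and mock cells (blue points), with bars at the means and log axes. Left, half-lives in min of the 5 ZNF mRNAs whose half-life passed the test; right, flow-through RNA in the authors' unit for the 4 largest falls and the 4 largest rises past the test. ZNF238 lies lower after siRNA in both panels, at 114 and 156 min and at flow-through values of 3.93 and 4.04.

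New ZNF RNA changed in both directions. Labelled RNA rose after MOV10 siRNA in 29 of the 201 genes (14.4%), against 9.88% of all genes, and fell in 17 (8.46%), against 11.5%. The median log2 change was 0.091, and that of all genes was 0.0045. Without centring, where the median over all genes was 0.14, 83 rose and 10 fell. The shares of all genes in that setting are not given here, so these counts are not particular to ZNF genes. Without mock replicate 2, 19 rose and 13 fell.

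The 4 largest rises were in genes with a KRAB box by the wider of the motifs used to find it. ZNF695 labelled RNA was 10.5 and 13.8 in MOV10 siRNA cells, against 5.66 and 7.39 in mock cells (log2 change 0.67, SE 0.14, limma, adjusted p = 0.00727). ZNF224, which represses transcription together with WT1, had 33.4 and 36.0 in MOV10 siRNA cells, against 21.5 and 19.7 in mock cells (log2 change 0.59, SE 0.079, limma, adjusted p = 0.000865). ZNF133 had 15.6 and 14.9 in MOV10 siRNA cells, against 9.24 and 9.07 in mock cells (log2 change 0.54, SE 0.082, limma, adjusted p = 0.00169). In each of these genes, and in ZNF343 (0.51, adjusted p = 0.00177), both siRNA columns lay above both mock columns. The largest fall was that of ZNF703, at 221 and 168 in MOV10 siRNA cells, against 269 and 339 in mock cells (log2 change -0.78, SE 0.15, limma, adjusted p = 0.00473). Its relative ZNF503 had 82.6 and 66.7 in MOV10 siRNA cells, against 101 and 113 in mock cells (log2 change -0.65, SE 0.12, limma, adjusted p = 0.00351). ZNF580 had 15.2 and 13.8 in MOV10 siRNA cells, against 23.2 and 20.8 in mock cells (log2 change -0.71, SE 0.085, limma, adjusted p = 0.000537). These genes, and ZNF771 (-0.67, adjusted p = 0.00146), were lower in both siRNA columns than in both mock columns.

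Old ZNF RNA rose more often than it fell. Flow-through RNA rose after MOV10 siRNA in 88 of the 201 genes (43.8%), against 31.7% of all genes, and fell in 32 (15.9%), against 26.8%. The share that changed in either direction was close to that of all genes, at 59.7% against 58.6%, as it was for labelled RNA, at 22.9% against 21.4%. The median log2 change was 0.18 over the ZNF genes and 0.034 over all genes. The change was positive in 140 of the 201 and in 3291 of all 6064 genes. Without mock replicate 1, 54 rose and 31 fell. GC content of the coding sequence moved with these changes in the ZNF genes and in other genes alike, and its part in them was not tested.

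ZNF238 fell most, with flow-through values of 3.93 and 4.04 in MOV10 siRNA cells, against 11.2 and 10.5 in mock cells (log2 change -1.23, SE 0.069, limma, adjusted p = 0.000153). ZNF703 had 16.1 and 16.1 in MOV10 siRNA cells, against 39.2 and 36.6 in mock cells (log2 change -1.17, SE 0.052, limma, adjusted p = 9.3e-05). ZNF771 had 4.24 and 3.99 in MOV10 siRNA cells, against 10.9 and 8.79 in mock cells (log2 change -1.06, SE 0.10, limma, adjusted p = 0.000594), and ZNF580 had 20.3 and 19.8 in MOV10 siRNA cells, against 42.7 and 39.7 in mock cells (log2 change -0.99, SE 0.053, limma, adjusted p = 0.000148). All 4 were lower in both siRNA columns than in both mock columns. Total RNA showed this fall in ZNF238, at 5.75 and 5.88 in MOV10 siRNA cells, against 11.2 and 11.3 in mock cells (-0.83), and not in the other 3. ZNF580 total RNA was 25.2 and 25.4 in MOV10 siRNA cells, against 21.6 and 26.2 in mock cells (0.10). ZNF703 total RNA was 50.5 and 54.7 in MOV10 siRNA cells, against 44.8 and 63.4 in mock cells (-0.0016), and that of ZNF771 was 4.78 and 6.25 in MOV10 siRNA cells, against 6.02 and 5.53 in mock cells (-0.046). In these 3 genes the total columns of both conditions overlapped, although labelled and flow-through RNA were each lower after siRNA. ZNF503 had flow-through RNA at 8.93 and 9.44 in MOV10 siRNA cells, against 19.2 and 15.0 in mock cells (-0.80, adjusted p = 0.00181), and total RNA at 21.4 and 20.4 in MOV10 siRNA cells, against 18.7 and 23.7 in mock cells (0.0079).

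Among the rises, ZNF134 had flow-through values of 18.1 and 18.2 in MOV10 siRNA cells, against 9.88 and 11.1 in mock cells (log2 change 0.76, SE 0.073, limma, adjusted p = 0.000572). ZNF33A had 31.8 and 31.6 in MOV10 siRNA cells, against 19.96 and 20.8 in mock cells (log2 change 0.63, SE 0.052, limma, adjusted p = 0.000388), and ZNF223 had 18.01 and 16.8 in MOV10 siRNA cells, against 10.8 and 11.6 in mock cells (log2 change 0.62, SE 0.070, limma, adjusted p = 0.001). These 3 genes were higher in both siRNA columns than in both mock columns, also in labelled and in total RNA. ZNF695 had 11.5 and 12.5 in MOV10 siRNA cells, against 5.25 and 8.42 in mock cells (log2 change 0.77, SE 0.19, limma, adjusted p = 0.0148). Its mock columns differed from each other more than those of the other named rises, and its total RNA was 5.01 and 5.93 in MOV10 siRNA cells, against 3.70 and 7.95 in mock cells, where the mock columns enclosed both siRNA columns.

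Protein class was read from GENCODE v29 coding sequences, translated, for 195 of the 201 genes. With the motif first set for the KRAB box, 73 genes carried it, and flow-through RNA rose in 32 of them and fell in 6. Of the 118 other genes with at least 1 finger, 52 rose and 24 fell. That motif missed known KRAB genes, so a wider one was added after the data were seen, and it found the box in 104 genes. By the wider motif, flow-through RNA rose in 50 of 104 KRAB genes (48.1%) and fell in 7 (6.73%), with a median log2 change of 0.25. Of the 87 genes with fingers and no KRAB box, 34 rose (39.1%) and 23 fell (26.4%), with a median of 0.058. Labelled RNA rose in 16 and fell in 4 KRAB genes, and rose in 11 and fell in 11 of those without the box. Over all genes flow-through RNA rose in 31.7% and fell in 26.8%, and labelled RNA in 9.88% and 11.5%. The KRAB genes had median half-lives of 229 and 292 min in MOV10 siRNA cells and 210.3 and 222 min in mock cells, and the others had 301 and 412 min in MOV10 siRNA cells and 289 and 295 min in mock cells. KRAB proteins held a median of 11.5 fingers and the others 8. The classes also differed in GC content of the coding sequence, with medians of 43.7% and 53.9%, and no difference between the classes was tested.

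No finger was found in ZNF703, ZNF259, ZNF330 and ZNF839 by the motif used. ZNF812, ZNF767, ZNF542 and ZNF271 are annotated as pseudogenes, and ZNF503 and ZNF673 were not matched to a coding sequence here.

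**Figure D3:**
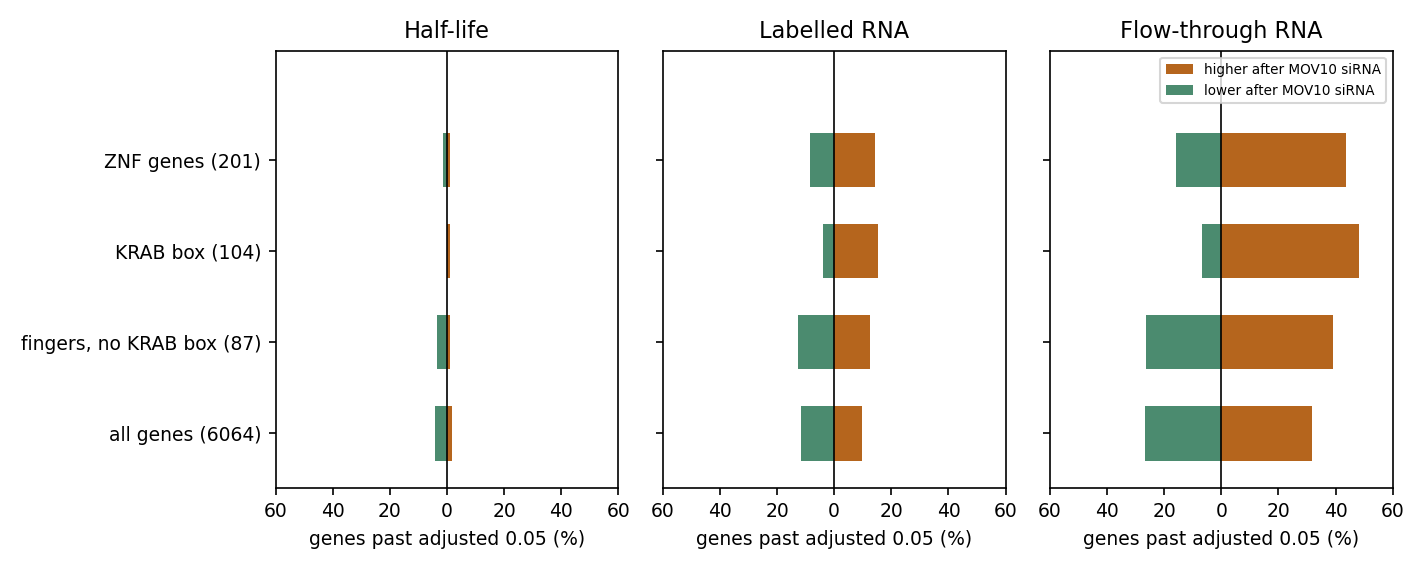
Percent of genes past an adjusted 0.05 after MOV10 siRNA, to the right for higher and to the left for lower, for half-life, labelled RNA and flow-through RNA. Rows are all 201 ZNF genes, the 104 with a KRAB box by the wider motif, the 87 with fingers and no KRAB box, and all 6064 genes; for flow-through RNA the KRAB row reaches 48.1% higher and 6.73% lower.

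Coding sequences of ZNF genes were poorer in GC than those of other genes, with medians of 46.4% and 52.0%. Flow-through changes followed GC content in both. Across 195 ZNF genes Spearman's rho between coding GC and the flow-through change was -0.56, and across 5796 other genes it was -0.46; the points share the same columns and are not independent. All tested genes were split by coding GC into 4 bins of equal size. In the bin of lowest GC, up to 44.9%, flow-through RNA rose in 53 of 83 ZNF genes (63.9%) and in 48.6% of other genes, and fell in 3 (3.61%) and in 14.1%. In the second bin it rose in 23 of 47 (48.9%) and in 42.9% of other genes, and fell in 0 and in 16.5%. In the third bin it rose in 8 of 18 (44.4%) and in 27.9% of other genes, and fell in 2 (11.1%) and in 23.9%. In the bin of highest GC, from 59.2%, it fell in 26 of 47 ZNF genes (55.3%) and in 54.3% of other genes, and rose in 2 (4.26%) and in 6.62%. Median log2 changes of the ZNF genes from the lowest to the highest bin were 0.35, 0.22, 0.15 and -0.28, beside 0.17, 0.12, 0.028 and -0.21 for other genes. This split was added after the data were seen.

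GC content moved with the other readouts too. Over the ZNF genes rho with coding GC was -0.53 for the half-life change, -0.28 for the labelled change and -0.43 for the total difference. For the half-life in mock cells it was -0.10. Within the KRAB genes rho with the flow-through change was -0.30, and within those with fingers and no KRAB box it was -0.73. The number of fingers had a rho of 0.43 with the flow-through change over 195 genes and 0.52 within the KRAB genes. Several of the most changed genes had very high or low GC. ZNF703, ZNF580 and ZNF771 had coding GC of 72.4%, 74.8% and 71.4%, and ZNF695 and ZNF33A had 39.0% and 40.1%. ZNF238 lay between them at 54.0%.

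**Figure D4:**
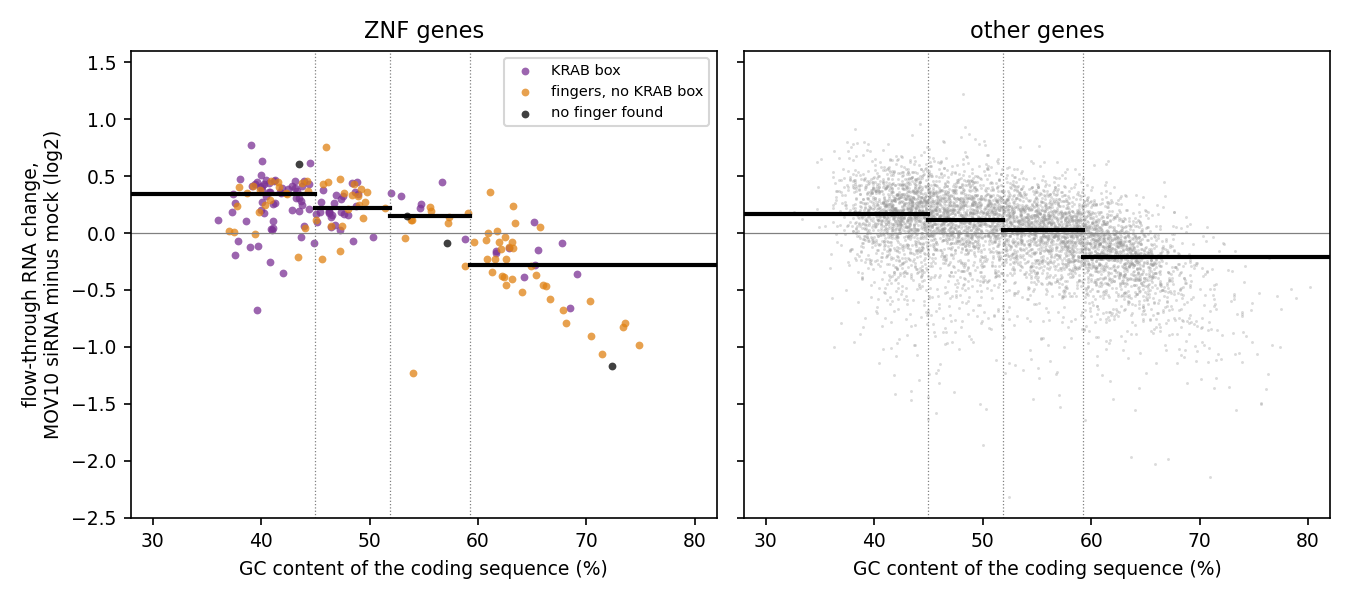
Flow-through RNA change in log2, MOV10 siRNA minus mock, against GC content of the coding sequence in percent, for ZNF genes by class (left) and other genes (right); dotted lines mark the quartiles of all tested genes and black bars the median change in each of the 4 bins. In both panels the bars step down with GC, and for ZNF genes they end at -0.28.

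Of ZNF proteins known to silence transposons or imprinted regions, 3 of 9 listed were tested. Flow-through RNA rose in 2 of them and fell in 0, against 31.7% and 26.8% of all genes, and no half-life or labelled RNA passed the test. ZNF274, which brings SETDB1 to ZNF gene clusters, had flow-through values of 37.1 and 36.6 in MOV10 siRNA cells, against 30.1 and 29.05 in mock cells (log2 change 0.32, SE 0.045, limma, adjusted p = 0.00199). ZNF268 had 9.51 and 8.58 in MOV10 siRNA cells, against 7.50 and 7.44 in mock cells (log2 change 0.26, SE 0.075, limma, adjusted p = 0.0267). ZNF649, which binds LINE-1 elements, had 6.76 and 7.07 in MOV10 siRNA cells, against 5.60 and 6.80 in mock cells (0.16, adjusted p = 0.224). ZNF649 alone of these 3 did not pass, and 1 of its siRNA values lay within the mock range.

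Of 19 listed transcription factors, 10 were tested, and flow-through RNA rose in 3 and fell in 5, against 31.7% and 26.8% of all genes. ZNF24, a SCAN-domain factor, rose (0.45, adjusted p = 0.00106), with values of 27.2 and 29.2 in MOV10 siRNA cells, against 20.6 and 20.6 in mock cells. ZNF644, a partner of the histone methyltransferases EHMT1 and EHMT2, rose as well (0.41, adjusted p = 0.00748), at 32.7 and 36.0 in MOV10 siRNA cells, against 24.2 and 27.8 in mock cells. ZNF292 was the third (0.35, adjusted p = 0.0088). ZNF335, a component of histone H3 lysine methyltransferase complexes, fell (-0.34, adjusted p = 0.0195), at 6.83 and 8.11 in MOV10 siRNA cells, against 10.3 and 9.37 in mock cells. ZNF687 fell (-0.23, adjusted p = 0.0395), while ZNF592, its partner in a complex with ZMYND8, did not pass (0.091, adjusted p = 0.211). The others that fell were ZNF238, ZNF703 and ZNF503. ZNF281, a factor of pluripotent cells, did not pass (-0.16, adjusted p = 0.0948). Labelled RNA fell in 3 of the 10, again ZNF238, ZNF703 and ZNF503, and rose in 0, against 11.5% and 9.88% of all genes.

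Of 12 listed ZNF proteins that act on RNA, ribosomes or mitosis, 8 were tested, and flow-through RNA rose in 3 and fell in 1. The shares of all genes were 31.7% and 26.8%. ZNF598, the ubiquitin ligase that marks collided ribosomes, fell. Its flow-through values were 62.5 and 64.5 in MOV10 siRNA cells, against 89.4 and 88.1 in mock cells (log2 change -0.46, SE 0.038, limma, adjusted p = 0.000379). ZNF330, a nucleolar protein, rose, at 67.8 and 69.4 in MOV10 siRNA cells, against 47.5 and 43.4 in mock cells (log2 change 0.60, SE 0.050, limma, adjusted p = 0.000401). Its half-lives were 1156 and 1416 min in MOV10 siRNA cells, against 813 and 850.2 min in mock cells, a change that missed the threshold (0.43, adjusted p = 0.0506). The SUMO ligase ZNF451 rose in flow-through RNA (0.38, adjusted p = 0.00491) and in labelled RNA (0.35, adjusted p = 0.0128), as did ZNF830, a spliceosome-associated protein (0.22, adjusted p = 0.0143 and 0.32, adjusted p = 0.0144). ZNF706 fell in labelled RNA (-0.40, adjusted p = 0.0158). The RNA-binding genes ZNF346, ZNF385A and ZNF326 did not pass in any fraction. ZNF326, which joins transcription to splicing, varied between columns, with flow-through values of 33.8 and 46.3 in MOV10 siRNA cells, against 36.9 and 58.7 in mock cells.

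The corepressors that KRAB proteins recruit, and enzymes of histone H3K9 methylation, were tested in 18 of 20 listed genes. Flow-through RNA rose in 9 and fell in 3, labelled RNA rose in 5 and fell in 0, and half-life rose in 0 and fell in 1, ATF7IP. Over all genes 31.7% rose and 26.8% fell in flow-through RNA, 9.88% and 11.5% in labelled RNA, and 1.88% and 4.27% in half-life. TRIM28 itself fell slightly in flow-through RNA (-0.16, adjusted p = 0.00465), and EHMT2 fell more (-0.55, adjusted p = 0.00224). SETDB1 (0.29, adjusted p = 0.00368), the HP1 gene CBX1 (0.40, adjusted p = 0.00055) and MORC2 (0.40, adjusted p = 0.0015) rose. ATF7IP, the partner of SETDB1, had a shorter half-life relative to the median gene (-0.48, limma, adjusted p = 0.0361). Its half-lives were 294 and 432 min in MOV10 siRNA cells, against 428 and 440 min in mock cells. The higher siRNA value thus lay between the mock values before centring.

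Neighbouring ZNF genes were examined because of their tandem clusters. By gene order in RefSeq, 84 of the 201 sat in 31 runs of members with no other protein-coding gene starting between them, and 89 lay on chromosome 19. Of the 31 runs, 16 had flow-through rises and no falls, 9 had falls and no rises, 1 had both and 5 had neither. Over all genes flow-through RNA rose in 31.7% and fell in 26.8%. The run of 7 on chromosome 19, ZNF383, ZNF420, ZNF345, ZNF585A, ZNF568, ZNF829 and ZNF585B, had 5 flow-through rises, 0 falls and a median log2 change of 0.32. ZNF829 and ZNF585B did not pass (0.20, adjusted p = 0.0893 and 0.46, adjusted p = 0.0823). A run of 5 on the same chromosome, ZNF567, ZNF382, ZNF461, ZNF260 and ZNF529, had 3 rises and 0 falls. On chromosome 16, ZNF688, ZNF768, ZNF747 and ZNF764 formed a run in which 3 fell and 0 rose, with a median of -0.29. Other runs of 4 were less uniform: ZNF26, ZNF140, ZNF605 and ZNF84 on chromosome 12 had 3 rises and 1 fall, and ZNF30, ZNF302, ZNF599 and ZNF181 on chromosome 19 had 1 rise, 0 falls and a median of -0.032. The fourth run of 4, ZNF8, ZNF274, ZNF544 and ZNF329 on chromosome 19, had 3 rises and 0 falls. ZNF747 had flow-through values of 5.21 and 6.04 in MOV10 siRNA cells, against 9.57 and 9.52 in mock cells (log2 change -0.66, SE 0.080, limma, adjusted p = 0.00122). The GC content of these runs differed as well: coding GC was 39.6% to 43.8% in the run of 7 and 61.5% to 69.1% in the run on chromosome 16. Genes of a run are often close copies, such as ZNF585A and ZNF585B, ZNF780A and ZNF780B or ZNF33A and ZNF33B, and the counting could split reads between such copies, so their separate values are uncertain. Neighbours on opposite strands are uncertain too, since no strand information is given.

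Earlier results of these data had named the sequence TACTGCA in 3′ UTRs, and it was looked up in the longest GENCODE v29 3′ UTR of each gene. It occurred in 26 of 194 ZNF genes (13.4%) and in 11.5% of all tested genes with a 3′ UTR, read on the transcript's strand only. Sites of 3 genes named for their changes or roles are shown with their surroundings, in sense orientation on GRCh38, with the match in capitals.
ZNF238 (chromosome 1): cttagaataacTACTGCAcaagttgacaa
ZNF281 (chromosome 1): tgtgtactgaaTACTGCAtatgtattatt
ZNF224 (chromosome 19): agtaaactcagTACTGCAatccatagcaa
Outside the match these 3 strings differ. Sites of other genes, among them ZNF33A and ZNF223, are not shown. The sites of ZNF223 and ZNF426 and a site of ZNF268 begin alike after the match.

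ZNF genes with TACTGCA had other medians than the whole set of genes with it. Over all 686 tested genes with the sequence the median half-life change was -0.066, with 5 rises and 100 falls, and that of the flow-through change was -0.038, with 22.6% higher and 36.3% lower. In the 26 ZNF genes the median half-life change was 0.10, with 0 rises and 1 fall, ZNF238, and the median flow-through change was 0.28, with 10 rises (38.5%) and 1 fall (3.85%). The 168 ZNF genes without it had medians of 0.037 for half-life and 0.18 for flow-through RNA, which rose in 75 of them (44.6%) and fell in 30 (17.9%). Half-life rose in 2 of the 168 and fell in 2. Over all 6064 genes half-life rose in 1.88% and fell in 4.27%, and flow-through RNA in 31.7% and 26.8%. ZNF224 carries the sequence and rose in flow-through RNA (0.46, adjusted p = 0.000892), and the half-life of ZNF281 did not pass (-0.28, adjusted p = 0.179). No test of these differences was run. The 26 had a median coding GC of 43.3% and the 168 of 47.4%. Their median 3′ UTRs were 4189.5 and 1622.5 bases long. Over all tested genes with and without the sequence, those medians were 3152 and 1182 bases. The share expected from length was not computed.

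Whether old and new RNA of a gene changed to different degrees was tested as an interaction, the flow-through change minus the labelled change. Both fractions of a replicate come from the same extract, but the fit treated their columns as independent, which limits its p-values. The difference was above 0 past the threshold in 8 ZNF genes (3.98%), against 4.47% of all genes, and below 0 in 4 (1.99%), against 5.92%. Without centring, where the median over all genes was -0.14, 2 lay above and 26 below, and the shares of all genes are not given for that setting. Without mock replicate 1, 0 passed in either direction, without mock replicate 2, 2 lay above and 1 below, and without MOV10 siRNA replicate 1, 0 lay above and 1 below. ZNF238 had the largest difference (log2 change -0.68, SE 0.089, limma, adjusted p = 0.00201), with a flow-through change of -1.23 beside a labelled change of -0.55. ZNF345 lay at the other end (log2 change 0.55, SE 0.11, limma, adjusted p = 0.012): its flow-through RNA rose (0.29) while its labelled RNA, at 9.29 and 9.75 in MOV10 siRNA cells, against 10.4 and 10.7 in mock cells, fell (-0.27). The labelled call of ZNF345 held in 6 of 12 alternative settings. All 5 genes with a called half-life were among the 12, and both readouts rest on the same columns.

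**Figure D5:**
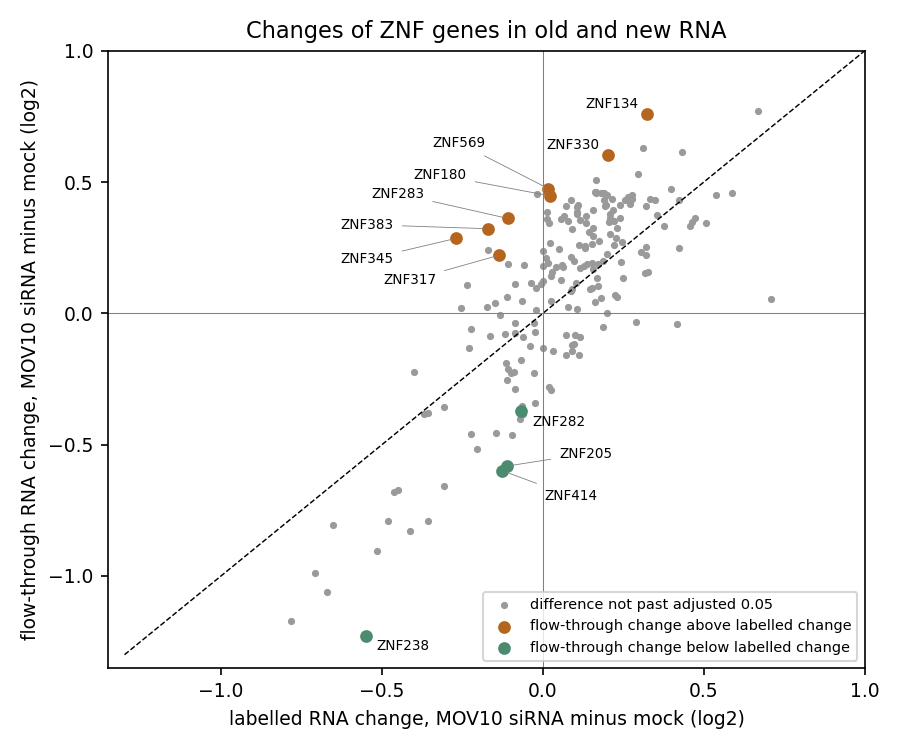
Flow-through RNA change against labelled RNA change in log2, MOV10 siRNA minus mock, for the 201 ZNF genes; on the dashed line both are equal. The 8 named brown points lie above it and the 4 named green points below it past an adjusted 0.05 for the difference, with ZNF238 lowest at -1.23.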

How the data were processed

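Per the submitters' processing notes, the authors aligned reads to hg18 with TopHat2 2.06. No source used here says how reads became expression values. The deposited file gives, per gene, 12 columns of normalised signal in no named unit and 4 columns of half-lives, whose unit its header does not name either and which was taken as minutes. GEO lists 6 samples, and the header names 2 columns for each group.

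A mean total value of 5 in each condition was required, which 6064 of 7682 genes met. log2(value + 1) or log2 half-life was centred on the median gene of each column and fitted with limma 3.58.1 (R 4.3.3, eBayes with a mean-variance trend), 2 columns against 2, with Benjamini-Hochberg adjustment at 0.05. The procedure was tested on simulated data. The members and lists were chosen with earlier results of these data known. Named genes were every member with a called half-life, the 4 largest called rises and falls of labelled and of flow-through RNA, the 4 shortest and 4 longest mock half-lives, the 2 nearest above the minimum and the tested members of 3 role lists. MOV10 and the KRAB corepressors were named besides. Neighbours, pseudogenes, genes without a finger, the 12 genes of the interaction test and ZNF708, ZNF524 and ZNF23 were named after their values were seen. Of the 201 genes, 199 matched GENCODE v29 by symbol, 12 of the 201 under another symbol. No coordinates are given, since that annotation and the deposited file use different builds. Gene order came from RefSeq (GRCh38.p14). Alternatives were another minimum, no centring, quantile normalisation, no variance trend, other pseudocounts, a replicate block, recomputed half-lives, leaving out each column, and leaving out pseudogenes. Dates stood in place of 10 gene symbols, which were not used by name. Tables were handled with pandas 2.3.3.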

Additional observations from a re-analysis of the deposited data

Results flagged for a closer look

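In 12 ZNF genes the effect of MOV10 siRNA on flow-through RNA differed from its effect on labelled RNA by the interaction test (limma, Benjamini-Hochberg over 6064 genes), and values are log2 differences of the changes. The change of old RNA lay below that of new RNA in 4 genes. ZNF238 was at -0.68, adjusted p = 0.00201. ZNF414 was at -0.47, adjusted p = 0.038, beside -0.60 in flow-through and -0.13 in labelled RNA. ZNF205 was at -0.47, adjusted p = 0.0133, beside -0.58 in flow-through and -0.11 in labelled RNA. ZNF282 was at -0.31, adjusted p = 0.04, beside -0.37 in flow-through and -0.067 in labelled RNA. In these last 3 genes flow-through RNA fell and labelled RNA did not pass the test. ZNF205 flow-through RNA was 13.4 and 13.0 in MOV10 siRNA cells, against 20.4 and 20.6 in mock cells, and its labelled RNA was 9.49 and 8.95 in MOV10 siRNA cells, against 9.28 and 8.82 in mock cells, where the conditions overlapped.

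The change of old RNA lay above that of new RNA in 8 genes. ZNF345 was at 0.55, adjusted p = 0.012. ZNF383, of the same run on chromosome 19, was at 0.49, adjusted p = 0.033, beside 0.32 in flow-through and -0.17 in labelled RNA. ZNF283 was at 0.47, adjusted p = 0.00984, beside 0.36 in flow-through and -0.11 in labelled RNA. ZNF569 was at 0.46, adjusted p = 0.0242, beside 0.48 in flow-through and 0.016 in labelled RNA. In these genes flow-through RNA rose, and only in ZNF345 did labelled RNA pass the test, a call that held in 6 of 12 alternative settings. ZNF180 was at 0.42, adjusted p = 0.0254, beside 0.45 in flow-through and 0.023 in labelled RNA. ZNF317 was at 0.36, adjusted p = 0.0265, beside 0.22 in flow-through and -0.14 in labelled RNA. ZNF134 was at 0.43, adjusted p = 0.0219, beside 0.76 in flow-through and 0.32 in labelled RNA, both of which rose. ZNF330 was at 0.40, adjusted p = 0.0292, beside 0.60 in flow-through and 0.20 in labelled RNA. Of the 8, 7 lie on chromosome 19, which holds 89 of the 201 genes. Each call was lost under some of the alternative settings: that of ZNF238 held in 11 of 12 alternative settings, and the other 11 held in 7 to 10 of 12 or 13.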

How the results depend on the processing

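Counts are given as higher and lower ZNF genes past the test. Shares of all genes under these settings are not given, so the counts cannot be set beside those of all genes. With a minimum of 10, which kept 84 of the 201, half-life gave 3 and 1, labelled RNA 10 and 9, flow-through RNA 42 and 17, and the difference 8 and 2 (median 0.080); labelled against flow-through gave 67 and 7 after siRNA (median 1.09) and 69 and 7 in mock (1.22). With no minimum for the fit, half-life gave 1 and 1, and labelled against flow-through had medians of 1.22 after siRNA and 1.21 in mock. Without centring, half-life gave 0 and 0 (median 0.24), labelled RNA 83 and 10 (0.23) and the difference 2 and 26 (-0.095), and labelled against flow-through had 52 lower after siRNA (0.57) and 59 lower in mock (0.41). With quantile normalisation, half-life gave 4 and 2 (0.096) and the difference 13 and 4 (0.11), the flow-through median was 0.22, and labelled against flow-through had medians of 1.37 after siRNA and 1.38 in mock. A pseudocount of 0 gave those medians as 1.40 and 1.40, and one of 0.1 as 1.39 and 1.39. Recomputed half-lives gave 5 and 4 (0.090). The cause of these shifts was not tested, beyond fewer genes being tested with a minimum of 10. The flow-through medians by bin of coding GC given above, 0.35, 0.22 and -0.28 for lowest, second and highest, are those of the main fit.

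Leaving out 1 column gave half-life 0 to 2 higher and 0 to 2 lower (median -0.0022 to 0.078), labelled RNA 19 to 32 higher and 13 to 19 lower (0.065 to 0.12), flow-through RNA 54 to 76 higher and 28 to 31 lower (0.16 to 0.20), and the difference 0 to 6 higher and 0 to 4 lower (0.015 to 0.098). Labelled against flow-through medians then ran from 1.26 to 1.29 after siRNA and from 1.26 to 1.37 in mock. A lone column left in a group was assumed to vary like the others.

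No clear pairing of siRNA with mock columns by replicate number was seen, though no label says whether the columns were paired. Deviations of same-numbered columns of the conditions correlated at -0.069 for half-life, -0.037 for labelled and 0.11 for flow-through RNA. Pairing of labelled with flow-through columns was not checked. With the replicate block, half-life gave 0 and 2, labelled RNA 35 and 18, flow-through RNA 95 and 35, and the difference 9 and 5. Of 247 comparisons of counts and medians with their main value, 179 stayed close. Of the named genes' changes under these settings, 0 called changes turned sign. Depth is unknown, and its limits were not assessed.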

Other observations

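The 4 ZNF genes annotated as pseudogenes had half-lives within the range of the rest. ZNF271 half-lives were 718 and 862 min in MOV10 siRNA cells, against 562 and 675 min in mock cells, and those of ZNF542 were 363 and 444 min in MOV10 siRNA cells, against 311 and 393 min in mock cells. ZNF767 was at 219 and 303 min in MOV10 siRNA cells, against 233 and 238 min in mock cells, and ZNF812 at 233 and 247 min in MOV10 siRNA cells, against 181 and 214 min in mock cells. Flow-through RNA rose in 2 of the 4 and fell in 0, against 31.7% and 26.8% of all genes. Reads shared with close copies were not separated here.

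The AU-rich heptamer TATTTAT occurred in the 3′ UTR of 40.7% of ZNF genes and of 34.6% of all tested genes with a 3′ UTR. It was in 54 of 104 KRAB genes (51.9%) and in 22 of the 87 with fingers and no KRAB box (25.6% of those with a 3′ UTR). The median 3′ UTR was 1986 bases long in the KRAB genes and 1736 bases in the others, and the share expected from length was not computed.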
